A study of Mus musculus with 10 samples.

Results

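Protein kinase C (PKC) genes of the conventional class and of the calcium-independent class (nPKC) were followed in mouse heart, with the related kinase gene Prkd1. The genes were Prkca and Prkcb (conventional), Prkcd, Prkce, Prkch and Prkcq (nPKC) and Prkd1. They were chosen by name: every probe set to which the array annotation gives one of these symbols alone was taken. That gave 7 of 18193 annotated genes and 17 of 45037 tested probe sets. A probe set is a group of short probes that together report one transcript region.

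All animals were male SV129 mice, 32 weeks old and littermates, and heart RNA was put on 10 single-colour Affymetrix arrays. KO AngII hearts (n = 2) came from PKCz -/- mice under the skin of which an osmotic minipump released angiotensin II for 14 days (432 µg/kg/day). WT AngII hearts (n = 3) came from wild-type mice given the same infusion. KO PBS (n = 3) and WT PBS hearts (n = 2) came from PKCz -/- and wild-type controls, which titles and design text say received PBS, although their source label calls them non-treated. No promoter, Cre driver or cell type is named for the PKCz deletion. Single arrays carry the number in their title, as in KO PBS 4. Nothing states that each array is a separate animal, so the p-values cover the spread among these RNA samples, which may be technical.

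Angiotensin II acts on a Gq-coupled receptor that activates phospholipase C, which releases diacylglycerol and, through inositol trisphosphate, calcium. Conventional PKC isoforms need both calcium and diacylglycerol, whereas nPKC isoforms respond to diacylglycerol alone. The atypical isoform PKCz, deleted here, responds to neither. Prkd1 encodes protein kinase D1, once called PKC mu, which nPKC isoforms phosphorylate and which in turn phosphorylates class II histone deacetylases in heart muscle cells. All of these kinases are controlled largely by membrane binding and phosphorylation, which arrays of RNA do not measure.

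RefSeq promoter sequences (GRCm38.p6, 250 bases before to 50 bases after the transcription start) were found for 5 of the 7 genes. The sequences below belong to the genes whose values stood out most in the arrays: Prkcb and Prkcd, both high on WT AngII 2, and Prkd1, which had the widest spread of the 7. They run 5′ to 3′ on the gene's strand, and capitals mark GC boxes (GGGCGG, or CCGCCC on the other strand).
Prkcb: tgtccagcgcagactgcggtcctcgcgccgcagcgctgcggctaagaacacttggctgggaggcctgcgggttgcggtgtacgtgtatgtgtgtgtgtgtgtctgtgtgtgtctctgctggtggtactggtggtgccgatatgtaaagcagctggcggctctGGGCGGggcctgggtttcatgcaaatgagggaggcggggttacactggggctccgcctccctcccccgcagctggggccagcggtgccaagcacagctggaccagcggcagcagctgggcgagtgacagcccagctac
Prkcd: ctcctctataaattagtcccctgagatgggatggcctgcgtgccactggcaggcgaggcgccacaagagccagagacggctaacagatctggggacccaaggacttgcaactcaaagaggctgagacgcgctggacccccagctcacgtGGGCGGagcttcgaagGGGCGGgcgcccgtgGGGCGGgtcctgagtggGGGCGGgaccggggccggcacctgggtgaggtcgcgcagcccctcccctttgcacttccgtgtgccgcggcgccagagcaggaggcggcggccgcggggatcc
Prkd1: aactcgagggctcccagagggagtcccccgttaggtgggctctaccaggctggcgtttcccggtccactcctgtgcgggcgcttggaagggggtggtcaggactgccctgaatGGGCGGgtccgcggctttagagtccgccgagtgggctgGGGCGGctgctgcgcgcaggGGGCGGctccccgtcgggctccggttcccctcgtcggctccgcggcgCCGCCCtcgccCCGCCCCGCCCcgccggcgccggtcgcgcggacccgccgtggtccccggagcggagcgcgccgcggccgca
The Prkcb promoter lies at chr7:122288875-122289174 (plus strand), the first of the Prkcd promoters at chr14:30626159-30626458 (minus strand) and the Prkd1 promoter at chr12:50649200-50649499 (minus strand).

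A GC box on either strand was present in 35.7% of 32851 promoters of the same length. Prkd1 held 6 copies, overlapping ones counted separately, and 1.35% of promoters held as many. The GC box consists of G and C only, and these shares do not allow for base composition. The Prkd1 window was 77.3% G and C, above 97.8% of promoters, and the Prkcd window shown 69.3%, above 89.5%. The median promoter was at 52.7%. The Prkcd promoter shown held 4 copies, a number reached by 5.49% of promoters, and the second Prkcd promoter (chr14:30610261-30610560, minus strand) held 0. Prkcb held 1 copy but 6 E-boxes (CANNTG), a number reached by 0.670% of promoters, while 72.3% held at least 1. In the Prkcd promoter shown 1 E-box overlapped a GC box. None of these 3 windows held an AP-1 motif (TGANTCA, in 7.81% of promoters) or the ETS motif CCGGAAGT (in 3.89%). These matches describe the letters of the windows only.

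The deposited values are on a log2 scale and were made with RMA, so a difference of 1 is a 2-fold change. Correlations between arrays lay between 0.973 and 0.995 and no columns were identical. Markers of heart muscle cells (Myh6, Tnnt2 and 8 others) averaged 13.98, near the top of the range of 3.06 to 14.68. The poly-A spike-in controls, RNA added in the laboratory, split the arrays: KO AngII 3, KO AngII 4 and KO PBS 4 read 6.57 to 6.73 and the other 7 arrays 11.86 to 12.29. All WT arrays are in the high class and both KO AngII arrays in the low class, so within the infused arrays genotype and spike-in class cannot be told apart. WT AngII 2 also stood apart, with 6 of the 17 probe sets at their highest and 3 at their lowest there, against 16.8% and 23.1% of all probe sets. The brightest Prkcz probe set read 5.87 on both KO AngII arrays and 6.23, 6.45 and 6.39 on the WT AngII arrays. It read 5.70, 5.76 and 5.85 on the KO PBS arrays, against 6.29 and 6.38 on the WT PBS arrays, and so was lower on every KO array. The other 2 Prkcz probe sets did not separate the genotypes, with KO minus WT differences of 0.10 and −0.09.

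Prkce was the brightest of the isoforms, with a leading probe set (the one of highest mean) at 9.14 ± 0.22 (SD, n = 10), brighter than 89.7% of all probe sets. Prkch followed at 8.86 ± 0.17 and Prkca at 8.45 ± 0.20. Prkcq stood at 7.75 ± 0.24, Prkd1 at 7.49 ± 0.48, Prkcd at 7.27 ± 0.36 and Prkcb last at 6.32 ± 0.34. Prkce exceeded Prkch on 8 of 10 arrays, and Prkch exceeded Prkca on 10. Prkca exceeded Prkcq on 10 arrays, and Prkcd exceeded Prkcb on 10. Prkcq over Prkd1 and Prkd1 over Prkcd held on 7 arrays each, so these neighbours overlapped. This is an order of brightness. Probes differ in affinity, so it is not an order of transcript amounts, and with the mean of all probe sets of a gene the order was different, led by Prkca (7.90), with Prkce at 7.16 below Prkd1 at 7.29.

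**Figure D1:**
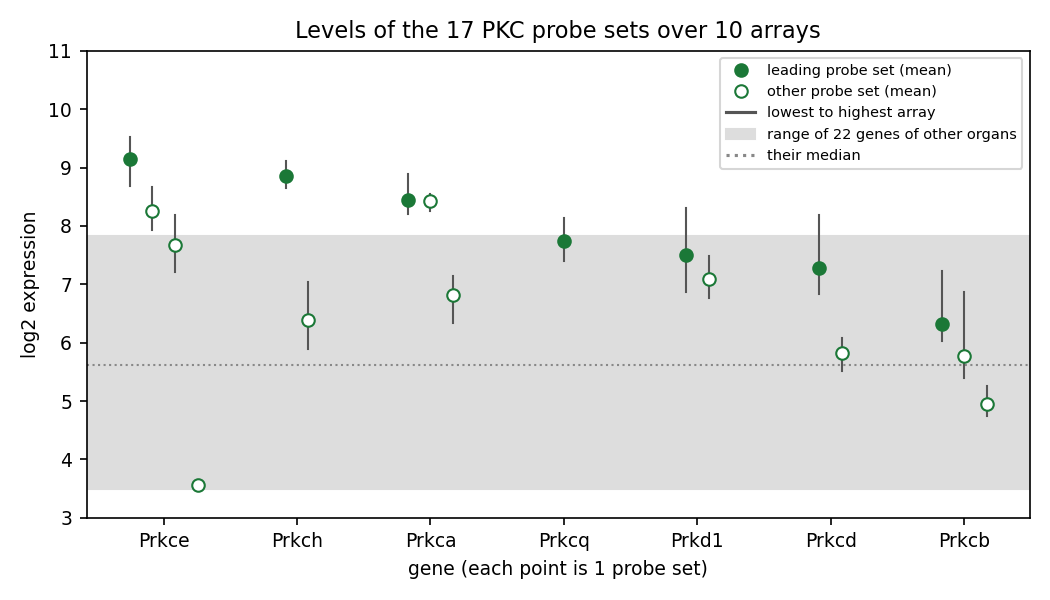
Log2 expression of the 17 probe sets, by gene; points are means over 10 arrays and lines run from the lowest to the highest array. The grey band spans 22 genes of other organs (3.49 to 7.83), with their median of 5.61 dotted. The leading probe sets of Prkce, Prkch and Prkca lie above the band.

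As a scale for signal without a transcript in heart, 22 genes known from other organs, such as photoreceptors and testis, ranged from 3.49 to 7.83 with a median of 5.61. The leading probe sets of 3 genes (Prkce, Prkch, Prkca) lay above all 22, and those of all 7 above the median. Over all probe sets, 5 of 17 lay above the whole range and 2 below the median. The dimmest, 1437860_at of Prkce, averaged 3.57, at the bottom of the scale. For Prkcb, 1443144_at averaged 4.95, so this probe set too gave little signal above that of genes foreign to heart.

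None of the 17 probe sets passed the test in any of the 7 comparisons (limma, adjusted p under 0.05 over all 45037 probe sets). The share of all probe sets that passed was 0% for AngII against PBS in WT, in KO and averaged, and 0% for the interaction, the difference between the AngII effects in KO and in WT. It was 0.0111% for KO against WT under AngII, 0.0133% under PBS and 0.0444% averaged over treatment. The smallest adjusted p among the 17 was 0.290. At an unadjusted p under 0.05 the 17 counted 0 for AngII in WT, 0 for AngII in KO, 2 for KO under AngII, 1 for KO under PBS, 0 for the interaction, 0 for AngII averaged and 2 for KO averaged. The same threshold was passed by 5.23%, 4.57%, 6.51%, 6.29%, 1.64%, 9.62% and 12.4% of all probe sets, in that order, so the counts of 2 of 17 and below were near the background. The 95% confidence interval lay within a 2-fold change for all 17 in WT AngII against WT PBS, 16 in KO AngII against KO PBS, 15 in KO against WT under AngII and 15 under PBS. The shares over all probe sets were 96.4%, 96.2%, 94.7% and 96.2%. For the interaction it was 13 of 17, against 91.3%. It was 17 of 17 for AngII averaged over genotype (98.5% of all) and 16 of 17 for KO averaged over treatment (98.0%). Outside the interaction the exceptions were the leading Prkd1 probe set and 1460419_a_at of Prkcb. The Prkd1 set was an exception in the KO infusion, under both treatments between genotypes and in KO averaged over treatment. The Prkcb set was an exception between genotypes under AngII and under PBS.

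**Figure D2:**
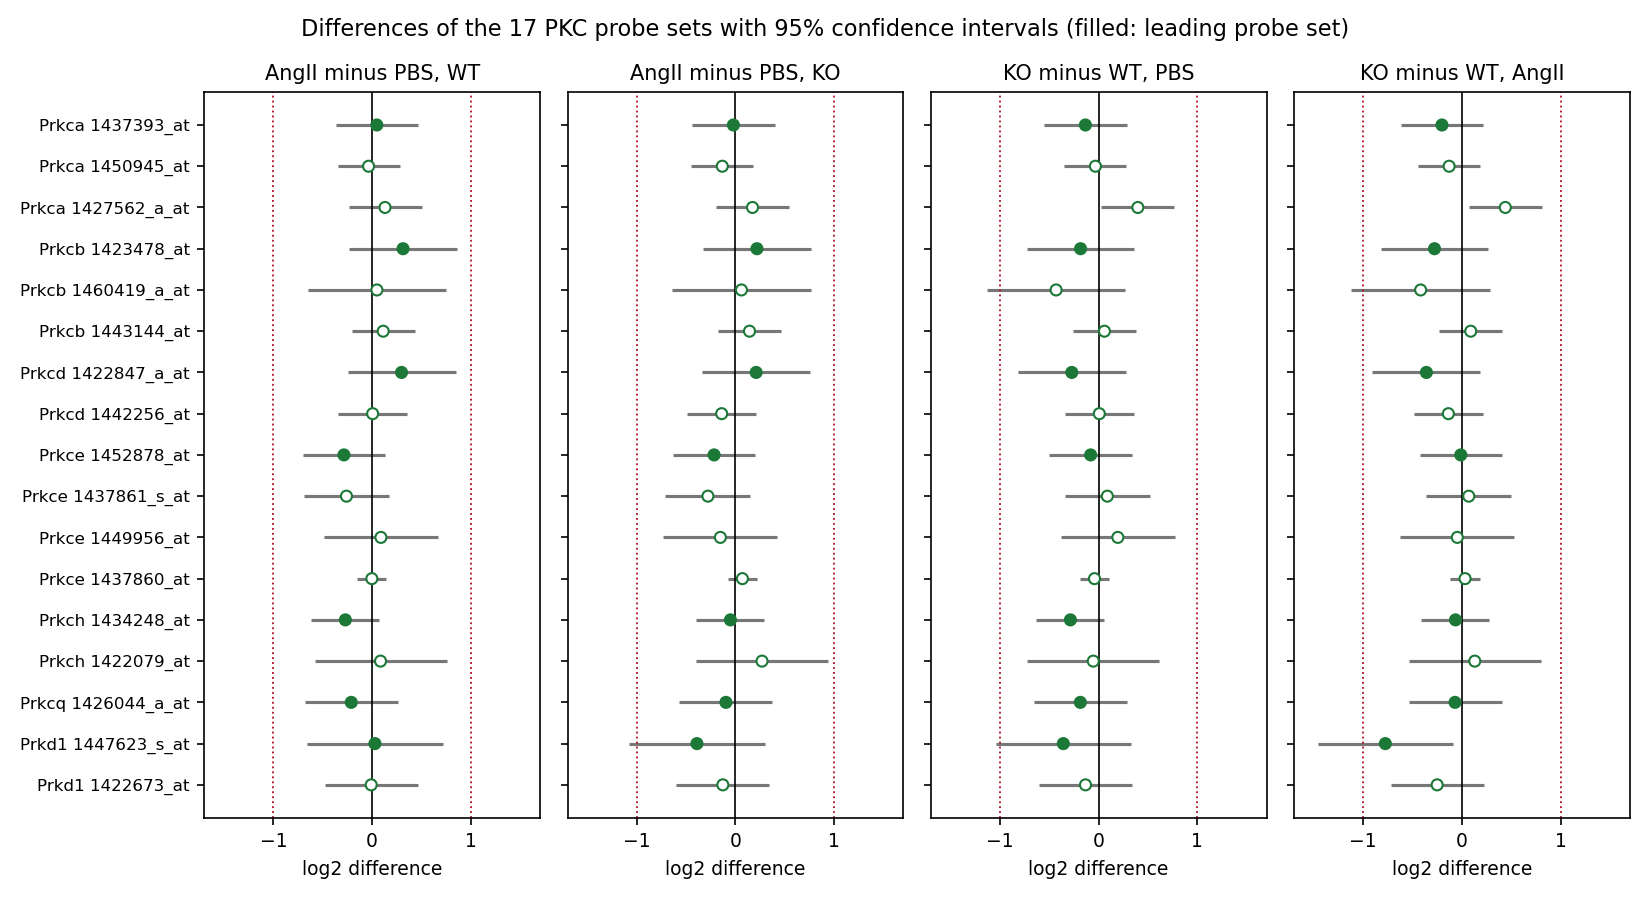
Log2 differences of the 17 probe sets (points; filled for the leading one of each gene) with 95% confidence intervals (lines) in 4 comparisons; dotted lines mark a 2-fold change. The intervals of Prkca 1427562_a_at in both genotype comparisons and of the leading Prkd1 probe set under AngII leave out 0, and the others include it.

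By direction, the leading probe sets of all 7 genes were lower in KO than in WT, under AngII (median −0.20) and under PBS (median −0.19), while 49.1% and 50.6% of 18193 genes lay below 0. Over all 17 probe sets the count was 12 of 17 lower in each condition, with medians of −0.07 and −0.08 against 0.03 and 0.01 for all probe sets. The count for the leading sets changed with single arrays: under AngII it was 6 of 7 with a median of −0.05 without WT AngII 2 and 5 of 7 without WT AngII 4, and under PBS 5 of 7 with a median of −0.14 without WT PBS 5. Under AngII it was 4 of 7 with quantile normalization repeated, with array weights, with the mean of all probe sets of a gene, or with the spike-in class as a block (median −0.04). With that block and without WT AngII 2 it was 2 of 7 with a median of 0.13, so the direction turned. Under PBS, where only high-class arrays can then inform the difference, it was 7 of 7 (median −0.15). Other settings lowered the count under PBS, to 6 of 7 with quantile normalization repeated. It was 5 of 7 there with a block by title number or with the mean of all probe sets of a gene. For AngII against PBS the leading sets divided 5 lower and 2 higher in KO, and 3 lower and 4 higher in WT. The KO split turned to 2 lower and 5 higher with the spike-in block (median 0.11) or without KO PBS 3 (median 0.08). It was 3 lower and 4 higher with quantile normalization repeated, array weights or the mean of all probe sets. Without WT AngII 2 all 7 were lower in WT AngII than in WT PBS (median −0.12). The comparisons under one condition or genotype share arrays with each other.

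Groups of 2 or 3 arrays often do not overlap. For AngII in WT 1 of 17 probe sets did not overlap, for AngII in KO 7, for KO against WT under AngII 3 and under PBS 5. The same held for 19.7%, 24.5%, 27.1% and 24% of all probe sets. With all AngII arrays set against all PBS arrays 0 of 17 did not overlap (1.07% of all), and with all KO arrays against all WT arrays 0 of 17 (1.43%).

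**Figure D3:**
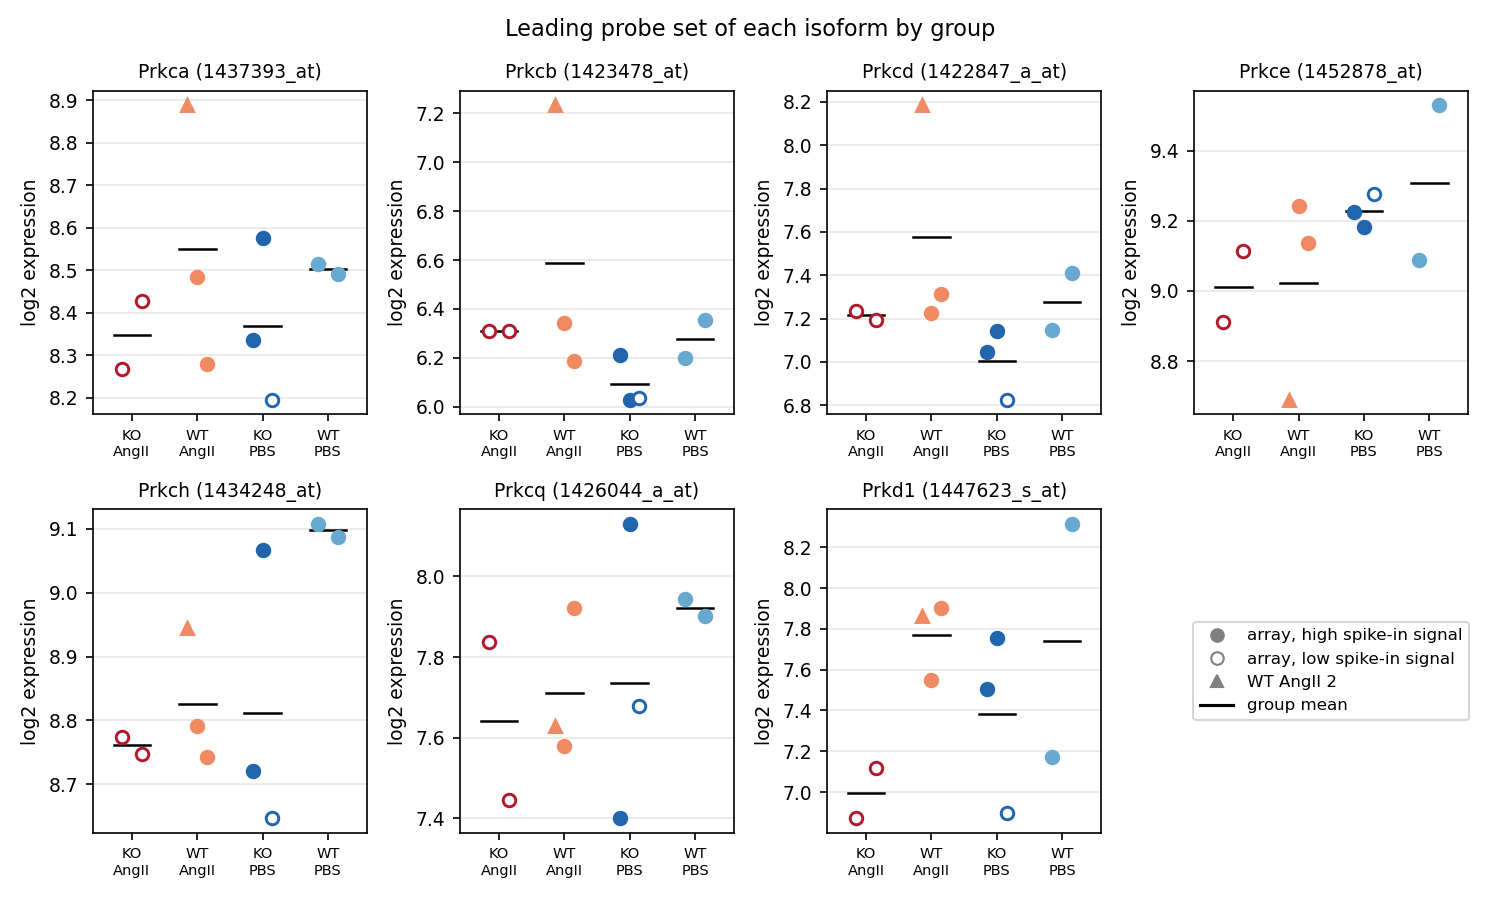
Log2 expression of the leading probe set of each gene on every array, by group; lines are group means, open points the 3 arrays of low spike-in signal and the triangle WT AngII 2. Prkcb and Prkcd read 7.23 and 8.18 on WT AngII 2, apart from the other arrays, and Prkd1 is lowest on the 3 open points.

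Prkca, the conventional isoform that in mouse heart muscle dampens contractility, read 8.27 and 8.43 in KO AngII hearts and 8.89, 8.48 and 8.28 in WT AngII hearts. In KO PBS hearts it read 8.34, 8.58 and 8.20, against 8.52 and 8.49 in WT PBS hearts. WT AngII 2 was the highest Prkca array, since the others lay between 8.20 and 8.58. All 4 groups overlapped their neighbours in the order of means, and the means spanned 0.20. KO differed from WT by −0.20 ± 0.19 (SE) under AngII and by −0.13 ± 0.19 under PBS. AngII differed from PBS by −0.02 ± 0.19 in KO and 0.05 ± 0.19 in WT. Without WT AngII 2 the KO minus WT difference under AngII was −0.03 and the AngII difference in WT −0.12. A further bright probe set, 1450945_at, varied less still, between 8.26 and 8.55 over all arrays.

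The dimmest Prkca probe set, 1427562_a_at, went the other way. It read 7.15 and 7.08 in KO AngII hearts, against 6.87, 6.54 and 6.61 in WT AngII hearts. It read 6.94, 6.80 and 7.08 in KO PBS hearts, against 6.75 and 6.34 in WT PBS hearts. KO and WT did not overlap under either treatment, though KO PBS 3 (6.80) lay below WT AngII 2 (6.87). The difference between KO and WT was 0.44 ± 0.17 under AngII (limma adjusted p = 0.734), 0.40 ± 0.17 under PBS (0.778) and 0.42 ± 0.12 averaged over treatment (unadjusted p = 0.00458, adjusted 0.290). The bright Prkca probe sets differed by −0.17 and −0.08 in the same averaged comparison, and the correlations of 1427562_a_at with them over 10 arrays were −0.26 and −0.41. The 3 arrays of low spike-in signal, all KO, read 7.08 to 7.15 and the 2 high-class KO arrays 6.80 to 6.94, while high-class arrays as a whole read 6.34 to 6.94. Of all probe sets 5.06% likewise had the low-class arrays above all others. With the class as a block the averaged difference was 0.28 ± 0.19, and on high-class arrays alone under PBS it was 0.33 ± 0.20 (unadjusted p = 0.138). Without WT PBS 5 the difference under PBS was 0.19.

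**Figure D4:**
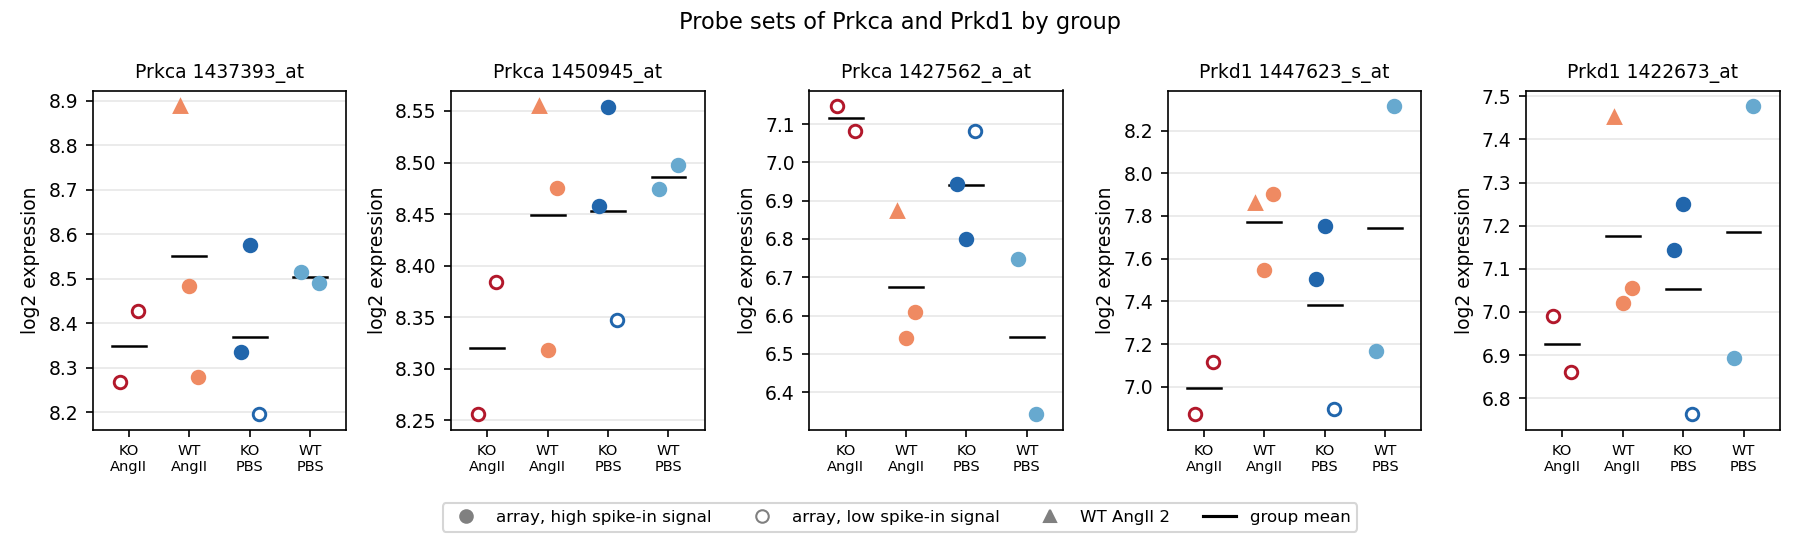
Log2 expression of the 3 probe sets of Prkca and the 2 of Prkd1 on every array, by group, with group means as lines and low spike-in arrays as open points. Prkca 1427562_a_at is higher on KO than on WT arrays within each treatment, the bright Prkca probe sets are not, and the leading Prkd1 probe set is lowest on open points.

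Prkcb, the conventional isoform best known for B cell receptor signalling and also present in other white blood cells and vessels, was the dimmest gene. Its leading probe set read 6.31 and 6.31 in KO AngII hearts and 7.23, 6.34 and 6.19 in WT AngII hearts. It read 6.21, 6.03 and 6.03 in KO PBS hearts, against 6.20 and 6.35 in WT PBS hearts. Only WT AngII 2 was high: the other 9 arrays lay between 6.03 and 6.35. AngII differed from PBS by 0.31 ± 0.25 in WT and by 0.22 ± 0.25 in KO, where the 2 infused arrays lay above the 3 controls. Without WT AngII 2 the difference in WT was −0.01. KO differed from WT by −0.28 ± 0.25 under AngII, 0.05 without WT AngII 2, and by −0.18 ± 0.25 under PBS. Probe set 1460419_a_at, which correlated with the leading one at 0.86, read 5.60 and 5.56 in KO AngII hearts, against 6.86, 5.44 and 5.70 in WT AngII hearts. It read 5.39, 5.61 and 5.57 in KO PBS hearts, against 5.72 and 6.18 in WT PBS hearts. WT AngII 2 was again the highest array, and only under PBS did the genotypes not overlap. That array was the highest of both probe sets, so it weighs on the correlation of 0.86, which was not computed without it. Probe set 1460419_a_at averaged 5.76, close to the median of 5.61 for genes foreign to heart. KO differed from WT by −0.42 ± 0.23 averaged over treatment (unadjusted p = 0.0867, limma adjusted 0.447). Without WT AngII 2 that value was −0.21, and the difference under AngII was 0.01, against −0.42 with all arrays.

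Prkcd, an nPKC isoform studied for its part in cell death and ischaemic injury of the heart, had a like pattern. It read 7.24 and 7.19 in KO AngII hearts and 8.18, 7.23 and 7.31 in WT AngII hearts. It read 7.04, 7.14 and 6.83 in KO PBS hearts, against 7.15 and 7.41 in WT PBS hearts. WT AngII 2 was again the one high array, since the other 9 lay between 6.83 and 7.41, and KO lay just below WT under PBS. AngII differed from PBS by 0.21 ± 0.25 in KO and 0.30 ± 0.25 in WT (−0.01 without WT AngII 2). KO differed from WT by −0.36 ± 0.25 under AngII (−0.05 without WT AngII 2) and by −0.27 ± 0.25 under PBS. The dimmer probe set 1442256_at (5.51 to 6.08) did not follow it, with a correlation of −0.22.

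On WT AngII 2, 8 of the 9 macrophage markers (Adgre1, Cd68, Csf1r and others) and 8 of the 8 fibroblast markers (Col1a1, Dcn, Postn and others) were at their highest. The macrophage markers averaged 1.03 above their own mean over all arrays there, and −0.39 to 0.13 on the other 9. By group they ranged from −0.10 to 0.03 in KO AngII, from −0.09 to 1.03 in WT AngII, from −0.39 to −0.23 in KO PBS and from −0.10 to 0.13 in WT PBS. The fibroblast markers ranged from 0.20 to 0.49 in KO AngII, from −0.25 to 2.02 in WT AngII, from −0.61 to −0.41 in KO PBS and from −0.69 to −0.25 in WT PBS. The dimmest macrophage marker, Fcgr1, averaged 5.85, close to the median of 5.61 for genes foreign to heart. Cd163 (7.06) and Cd68 (7.54) also lay below the brightest of those genes (7.83). Over 10 arrays Prkcb correlated with the macrophage mean at 0.96 and Prkcd at 0.98, and without WT AngII 2 at 0.71 and 0.92. Other marker means ran as close: Prkcb correlated with smooth muscle and pericyte markers at 0.94, and without that array at 0.80. Fibroblast markers correlated with Prkcb at 0.91 and with Prkcd at 0.88, but without that array at 0.48 and 0.37. Without it heart muscle markers, which varied little, correlated with Prkcb at 0.81 and with Prkcd at 0.86. Prkcb and Prkcd correlated with each other at 0.95, and at 0.69 without that array. Prkca, also highest on WT AngII 2, correlated with the macrophage mean at 0.80, with Prkcb at 0.77 and with Prkcd at 0.82. Without that array these values were 0.32, 0.15 and 0.41. These are descriptions over arrays that share one processing. In bulk heart RNA, more or fewer cells of a type cannot be told apart from more or less RNA per cell. The part of cell makeup in the Prkca, Prkcb and Prkcd values was not tested.

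**Figure D5:**
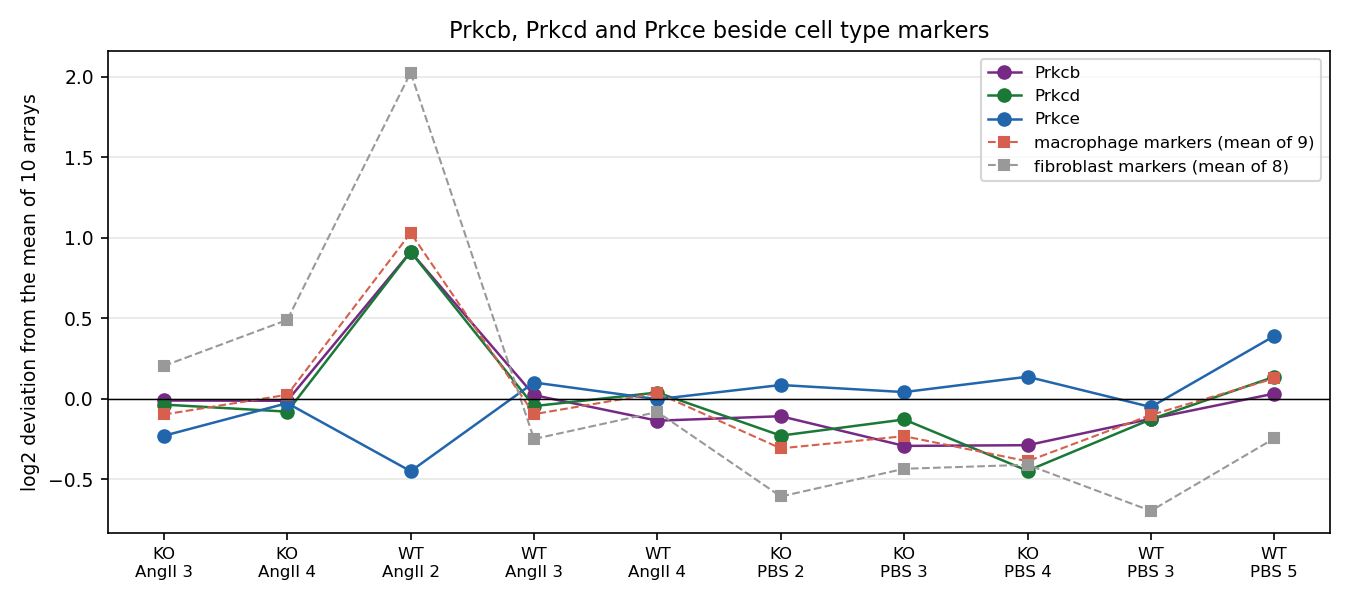
Log2 deviation from the mean of 10 arrays for Prkcb, Prkcd and Prkce (leading probe sets, solid lines) and for the means of 9 macrophage and 8 fibroblast markers (dashed), one point per array. On WT AngII 2 the macrophage markers stand at 1.03 and the fibroblast markers at 2.02, Prkcb and Prkcd are highest, and Prkce is lowest.

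Prkce, the nPKC isoform known for protecting heart muscle in ischaemic preconditioning, read 8.91 and 9.11 in KO AngII hearts and 8.69, 9.24 and 9.14 in WT AngII hearts. It read 9.23, 9.18 and 9.28 in KO PBS hearts, against 9.09 and 9.53 in WT PBS hearts. The infused KO hearts lay below the KO controls, while in WT the groups overlapped. AngII differed from PBS by −0.22 ± 0.19 in KO and −0.29 ± 0.19 in WT, and by −0.25 ± 0.13 averaged (unadjusted p = 0.0879, limma adjusted 0.560). The WT value was −0.12 without WT AngII 2, the lowest array, and −0.07 without WT PBS 5, the highest.

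Probe set 1437861_s_at, which correlated with the leading Prkce set at 0.72, lay on the same side. It read 8.20 and 8.10 in KO AngII hearts, against 8.39, 8.50 and 8.40 in KO PBS hearts, which did not overlap. It read 7.93, 7.996 and 8.32 in WT AngII hearts, against 8.02 and 8.67 in WT PBS hearts. The averaged AngII difference was −0.27 ± 0.14 (unadjusted p = 0.0772, limma adjusted 0.549), the smallest p of the 17 in that comparison. It was −0.11 without WT PBS 5 and −0.43 without WT PBS 3, and the WT difference of −0.26 was 0.06 without WT PBS 5. Another Prkce probe set, 1449956_at, ranged from 7.21 to 8.19 and differed by −0.15 in KO and 0.09 in WT. The dimmest, 1437860_at, read 3.56 and 3.65 in KO AngII, 3.64, 3.52 and 3.55 in WT AngII, 3.51, 3.52 and 3.57 in KO PBS and 3.58 and 3.57 in WT PBS hearts, at the level of genes foreign to heart throughout. Between genotypes the leading Prkce set differed by −0.01 ± 0.19 under AngII and −0.08 ± 0.19 under PBS.

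Prkch, an nPKC isoform known from epithelia and also found in endothelium, read 8.77 and 8.75 in KO AngII hearts and 8.95, 8.79 and 8.74 in WT AngII hearts. It read 8.72, 9.07 and 8.65 in KO PBS hearts, against 9.11 and 9.09 in WT PBS hearts. The WT PBS pair stood above all other arrays, with KO PBS 3 (9.07) close by. AngII differed from PBS by −0.27 ± 0.16 in WT (unadjusted p = 0.111, limma adjusted 0.930) and by −0.05 ± 0.16 in KO. The difference between these effects was 0.22 ± 0.22, so the AngII effect was not shown to differ between genotypes. KO differed from WT by −0.07 ± 0.16 under AngII and by −0.29 ± 0.16 under PBS. Endothelial markers (Pecam1, Cdh5 and 6 others) ran from −0.15 to −0.05 in KO AngII, from −0.22 to 0.16 in WT AngII, from −0.32 to 0.25 in KO PBS and from 0.12 to 0.19 in WT PBS. Prkch correlated with their mean at 0.83 over 10 arrays and 0.83 without WT AngII 2, and their part in the Prkch values was not tested. Other lists ran opposite to Prkch: T cell markers at −0.86 (−0.89 without that array), skeletal muscle markers at −0.86 (−0.88) and genes of other organs at −0.70 (−0.85). The endothelial mean also correlated with Prkca at 0.65, Prkd1 at 0.58 and Prkcq at 0.54. The dimmer probe set 1422079_at, at 5.89 to 7.04, was unrelated to the leading one (correlation 0.05).

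Prkcq, the nPKC isoform of T cell receptor signalling and skeletal muscle, was represented by 1 probe set. It read 7.84 and 7.44 in KO AngII hearts and 7.63, 7.58 and 7.92 in WT AngII hearts. It read 7.40, 8.13 and 7.68 in KO PBS hearts, against 7.94 and 7.90 in WT PBS hearts. KO PBS alone held both the lowest and the highest array, and every group overlapped its neighbours in the order of means. The 4 differences lay between −0.21 ± 0.22 (AngII in WT) and −0.07 ± 0.22 (KO under AngII).

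Prkd1 varied most of the 7. Its leading probe set read 6.87 and 7.12 in KO AngII hearts, against 7.86, 7.55 and 7.90 in WT AngII hearts. It read 7.50, 7.75 and 6.90 in KO PBS hearts, against 7.17 and 8.32 in WT PBS hearts. Under AngII the genotypes did not overlap, and the 2 WT PBS arrays lay farther apart than the arrays of any other group. KO differed from WT by −0.78 ± 0.31 under AngII (unadjusted p = 0.0298, limma adjusted 0.734), by −0.36 ± 0.31 under PBS and by −0.57 ± 0.22 averaged (unadjusted p = 0.0256, adjusted 0.363). Under PBS the difference was 0.21 without WT PBS 5 and −0.93 without WT PBS 3, so a single array fixed its sign. The averaged difference was −0.28 without WT PBS 5 and −0.85 without WT PBS 3. AngII differed from PBS by −0.39 ± 0.31 in KO and 0.03 ± 0.31 in WT, and the difference between these effects was −0.42 ± 0.44 (unadjusted p = 0.365). With the spike-in class as a block the KO value was 0.10 ± 0.38 and the difference between the effects 0.07 ± 0.47.

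The 3 low spike-in arrays gave the lowest 3 Prkd1 readings, 6.87 to 7.12, and the 7 others read 7.17 to 8.32. Of all probe sets 4.36% likewise had the low-class arrays below all others. Within the KO PBS hearts, the low-class array read 6.90 and the high-class ones 7.50 and 7.75. With the class as a block the KO minus WT difference was −0.04 ± 0.47 under AngII, −0.11 ± 0.31 under PBS and −0.08 ± 0.32 averaged. The blocked value under AngII rests on the contrast between classes in the KO PBS hearts. The second Prkd1 probe set, 1422673_at, correlated with the first at 0.85. It read 6.99 and 6.86 in KO AngII hearts, against 7.45, 7.02 and 7.05 in WT AngII hearts, and 7.14, 7.25 and 6.76 in KO PBS hearts, against 6.89 and 7.48 in WT PBS hearts. Its KO minus WT difference was −0.25 under AngII and −0.13 under PBS, and with the block 0.18 and 0.01.

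The genes whose leading probe sets ran most parallel to each isoform over the 10 arrays were searched among 12116 genes, with Pearson's r as the measure. For Prkcb they were Ms4a7 (0.98) and Cd68 (0.98), a membrane protein and a lysosomal glycoprotein of macrophages, at 0.82 and 0.83 without WT AngII 2. For Prkcd they were the endocytic receptor gene Lrp1 (0.99) and the growth factor gene Tgfb3 (0.98), at 0.92 and 0.90 without it. For Prkca they were Creb3 and Zbtb6 (0.96 each), and for Prkch Map2k3, a kinase that activates p38, and Yars (0.97 each). Prkce gave Psma6 and Ephb1 (0.93 each), Prkcq Atpaf2 (0.95) and Patz1 (0.93), and Prkd1 Abhd2 (0.95) and Trim3 (0.94). These genes were picked from the whole search for their high r, so the values are descriptions with no test.

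Around the isoforms, 74 measured genes of 83 in 6 lists were examined: other PKC, PKD and PKN kinases, phospholipases C, diacylglycerol kinases, other diacylglycerol receptors, scaffold and turnover factors, and substrates. None passed the adjusted test in any comparison. At an unadjusted p under 0.05, AngII counted 0 higher and 0 lower in WT, 3 and 3 in KO, and 3 and 5 averaged. Over all probe sets 5.23%, 4.57% and 9.62% passed that threshold, in that order. KO against WT counted 0 higher and 7 lower under AngII, 2 and 2 under PBS, and 2 and 10 averaged, where 56 of 74 genes lay below 0 (median −0.09). Over all probe sets 6.51%, 6.29% and 12.4% passed that threshold in these 3 comparisons, and averaged over treatment 48.8% of all genes lay below 0. The 74 genes include the deleted Prkcz itself, which is among the lower ones in each. All arrays of low spike-in signal are KO, so genotype and class are partly mixed in these counts. As deviations from all arrays, list means were highest on WT AngII 2 for other kinases (0.30), phospholipases C (0.15) and substrates (0.21). For the remaining lists another array was highest. Values for these 74 genes are given with all 10 arrays and no block, so the part of class or array cannot be read from them. Among the other kinases, Prkci, the closest relative of the deleted Prkcz, differed by −0.53 ± 0.17 between KO and WT averaged over treatment (unadjusted p = 0.00848, limma adjusted 0.318).

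Scaffold and turnover genes, of which 16 were measured, held 3 of those 10 lower ones and 0 higher, while 12.4% of all probe sets passed in either direction. Rictor, the mTORC2 subunit needed for PKC maturation, differed by −0.42 ± 0.14, and the anchoring proteins Akap12 and Akap13 by −0.54 ± 0.19 and −0.27 ± 0.12. In the AngII comparison averaged over genotype the same 16 genes counted 5 lower and 0 higher, while 9.62% of all probe sets passed in either direction. Rictor differed by −0.49 ± 0.14 and Akap12 by −0.51 ± 0.19. Pdpk1, the kinase that primes newly made PKC, differed by −0.35 ± 0.13 and the PKC phosphatase gene Phlpp1 by −0.33 ± 0.12. As a deviation from all arrays, the mean of the 16 genes was −0.21 and −0.12 in KO AngII, both of low spike-in signal. In KO PBS it was −0.18 on the low-class array and 0.15 and 0.02 on the high-class arrays. In WT, all of the high class, it was 0.15, −0.14 and −0.06 under AngII, against 0.24 and 0.15 under PBS. In KO, infusion and spike-in class are thus partly mixed. Of the substrates, Marcks, a classical PKC target at the plasma membrane, differed by 0.47 ± 0.17 with AngII. Between KO and WT the substrate Hdac9, a class II histone deacetylase, differed by −0.40 ± 0.15, the gap junction gene Gja1 by −0.18 ± 0.07 and the sarcomere gene Mybpc3 by −0.17 ± 0.07. The membrane skeleton gene Add2 lay on the other side, at 0.28 ± 0.11. Apart from the deleted Prkcz (0.126), the adjusted p of each gene named from these lists was 0.318 or above.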

How the data were processed

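Expression was measured on 10 single-colour arrays of mouse heart, grouped from the labels. The authors deposited log2 values of 45101 probe sets, and the submitters' processing notes name RMA. That method subtracts background, gives all arrays one distribution of probe values and combines the probes of a set, which compresses differences of dim probe sets. The deposited array medians still ran from 6.13 (WT PBS 5) to 6.24 (KO AngII 3), and were highest on the arrays of low spike-in signal. No version of RMA was found: not given in the sources used here, like the probe set definitions. Array number, not read depth, limits precision. Leaving out 64 control probe sets left 45037. The platform annotation gave 1 symbol for 34945 of them, several for 932 and none for 9160; symbols were updated by Entrez identifier.

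The tests used limma 3.58.1 under R 4.3.3 (a mean for each of 4 groups, trended eBayes, 6 residual degrees of freedom, two-sided, Benjamini-Hochberg over all probe sets within each of 7 comparisons), and the fit was tested on simulated data. A call is an adjusted p under 0.05. Values are given for each leading probe set and the 3 of smallest p in a comparison; of each pathway list, up to 4 genes of smallest p could be named, and those singled out in the text were chosen from them after their values were seen. The 2 genes of highest correlation were named per isoform. Members, lists and rules were chosen with earlier results of these data known. Alternatives covered normalization, filters, array weights, single arrays left out, and blocks by title number and by spike-in class. Title numbers gave no sign of pairing: of 10 pairs of equal number 1 had deviations correlated above 0.1 (−0.355 to 0.103), against 5 of 27 pairs of unequal number. Deviations in groups of 2 arrays are forced to mirror each other, so this check could not exclude a pairing.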

Additional observations from a re-analysis of the deposited data

How the results depend on the processing

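The counts of PKC probe sets called stayed at 0 under every setting tried except array weights. With each array weighted by its fit (0.225 for WT AngII 2 to 7.20 for WT AngII 4), 2 were called for KO against WT under AngII: Prkca 1427562_a_at (0.50, adjusted p = 0.0201) and the leading Prkd1 probe set (−0.88, 0.0289). For KO against WT averaged over treatment 1 was called, Prkca 1427562_a_at (0.46, 0.0247). The same weights called 2911 and 1562 of all probe sets there, against 5 and 20 without weights. Leaving out each array in turn left 0 called in all 7 comparisons, with a smallest adjusted p of 0.196. For leading probe sets that were not called, some differences changed sign. For AngII against PBS in WT, Prkcb turned to −0.048 with array weights. Without WT AngII 2, alone or with the spike-in class as a block, Prkcb turned to −0.011 and Prkcd to −0.0076 (ranges over single arrays left out −0.011 to 0.513 and −0.0076 to 0.471). For KO against WT under AngII, Prkca turned to 0.035 with array weights, 0.058 with the spike-in block, 0.23 with that block and without WT AngII 2, and 0.036 as the mean of its probe sets. Prkch turned to 0.18 with the spike-in block and Prkcb to 0.082 with array weights. With that block and without WT AngII 2, 5 of 7 turned above 0 under AngII: Prkch (0.24), Prkca, Prkcd (0.21), Prkcb (0.13) and Prkd1 (0.00052). Averaged over treatment, Prkca turned to 0.089, Prkcd to 0.015 and Prkch to 0.019. Prkch turned to 0.0079 for AngII averaged over genotype as the mean of its probe sets. The spike-in block combined with leaving out WT AngII 2 was chosen after seeing the data. The replicate block by title number called 0 PKC probe sets in every comparison, and 5 of all probe sets for KO against WT averaged over treatment, against 20 without it. Fits on high spike-in arrays alone could not be made for comparisons with KO AngII. Groups of 2 or 3 arrays leave intervals past a 2-fold change for Prkd1 and Prkcb probe sets and, in the interaction, for 4 of 17, which limits what could be detected.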
